A study of Mus musculus with 31 samples.

Results

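Proteasome transcripts were measured in D10.G4.1, a cloned line of mouse T helper cells of the Th2 type, given either neuromedin U (NmU), a neuropeptide, or phosphate-buffered saline (PBS). Members were all non-control probe sets whose single annotated gene symbol starts with Psma, Psmb, Psmc, Psmd, Psme or Psmg followed by a digit. This rule found 58 probe sets for 46 genes among 12422 non-control probe sets, and 53 of them, for 44 genes, passed the filter on dim signals and were tested. The groups were NmU and PBS at 0.8, 3, 6 and 12 h, with 4 arrays in each group except NmU at 3 h, which had 3. All groups were the same clone and no genotype, age or further agent is given, so the 31 samples describe 1 T cell clone.

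The proteasome is the barrel-shaped protease that degrades proteins tagged with ubiquitin. Its core particle is built from rings of alpha and beta subunits, and the catalytic sites lie on Psmb5, Psmb6 and Psmb7. The regulatory particle caps the core, recognises and unfolds substrates, and consists of ATPases (the Psmc genes) and non-ATPase subunits (most Psmd genes). In lymphoid cells, and in other cells under interferon gamma, Psmb8, Psmb9 and Psmb10 replace the constitutive catalytic subunits and form the immunoproteasome, which is known for producing peptides that are presented on MHC class I. Other activators (Psme genes) and assembly chaperones (Psmg genes with Psmd5, Psmd9 and Psmd10) complete the list.

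By role, the 58 probe sets fell into 7 for the 7 alpha ring genes, 12 for the 7 constitutive beta ring genes, 3 for the 3 immunoproteasome genes, 9 for 6 ATPase genes, 13 for 11 non-ATPase genes, 4 for 3 other activators and 8 for 7 chaperones. The remaining 2 matched by name only and encode no subunit. These are Psmc3ip, a meiotic recombination factor named for binding Psmc3, and Psme3ip1, named for binding Psme3. The 5 probe sets that failed the filter were the only ones for Psmc4, an ATPase, and for Psmd2, a large scaffold subunit, and 1 each for Psme1, Psmc5 and Psmb4, which had brighter probe sets. Psme2, the partner of Psme1, was represented only by 2 probe sets shared with the copy Psme2b and lay outside the rule. The brighter of these differed by -0.10, 0.06, -0.03 and 0.04 on the log2 scale at 0.8, 3, 6 and 12 h.

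Pairs of arrays within a group correlated at between 0.951 and 0.982 across the 7930 probe sets tested, and the median deposited signal per array lay between 34.4 and 43.3. PBS 3 h replicate 4 had the lowest mean correlation with the other arrays of its group (0.956). NmU 6 h replicate 4 went against its group for the immediate early gene Egr2, with a signal of 1705.4 against 251.9, 277.0 and 304.4 on the other NmU arrays at 6 h, and between 2927.8 and 2998.7 on the NmU arrays at 0.8 h. Results at 3 and 6 h whose call these arrays changed are given with and without them, as are several others. The labelled T cell identity was met by bright signals of Cd3d, Cd3g, Cd3e, Cd28, Cd4 and the Th2 factor Gata3. The summed T cell list ran from 6112 to 8543 over the arrays. Not all of the T cell list was bright. Cd247 lay between 61.2 and 152.0 over the arrays, and Cd2 was dim, between 7.4 and 31.9. Thy1 lay at or below the floor of 5.8 on 20 of 31 arrays. The summed lists of B cell, class II and macrophage or dendritic cell markers lay at 114 to 245, 103 to 199 and 287 to 671 over the arrays. Among their defining genes, H2-Aa lay at or below the floor on 25 arrays and Lyz2 on 28. Others of these lists lay above the floor on every array, with median signals of 263.3 for Mpeg1, 100.5 for Itgax, 70.9 for Cd14, 61.1 for Cd79a and 57.3 for Cd74. The median of Cd4 was 282.6. Because all samples were bulk RNA, fewer cells of a kind and less RNA per cell cannot be told apart.

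Few proteasome transcripts differed between NmU and PBS, and the differences were small. The call was an adjusted p under 0.05 in limma, after Benjamini-Hochberg adjustment over all 7930 probe sets. At 0.8 h, 0 of the 53 member probe sets were called in either direction, against a background of 0.782% of all probe sets higher and 0.0631% lower, and 1 member had an unadjusted p under 0.05. At 3 h, Psmd8 and 1 probe set of Psmd11 were higher and Psmb8 was lower, where 4.44% of all probe sets were higher and 5.73% lower. At 6 h, Psmd8 was higher and Psmb8 and Psmb9 were lower, where 2.85% of all were higher and 2.03% lower. At 12 h, 0 members were called, where 0.858% of all were higher and 0.404% lower, and 6 members had an unadjusted p under 0.05. The shares of the 53 members called were below these backgrounds in both directions at 3 h and for higher calls at 6 h. For lower calls at 6 h the share was above the background by about 1 probe set, and both calls were immunoproteasome subunits.

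The differences were also small against those of the array. The median log2 difference of the 53 members was -0.03, 0.07, -0.04 and 0.01 at 0.8, 3, 6 and 12 h, beside -0.04, -0.03, 0.02 and -0.02 over all 7930 probe sets. The median size regardless of sign was 0.067, 0.124, 0.124 and 0.091 for the members, beside 0.119, 0.212, 0.171 and 0.145 over all. Many of all probe sets were dimmer than the members, and no set matched for brightness was compared. The 95% interval of the difference lay wholly within 1.5-fold in either direction for 47 of 53 members at 0.8 h, 44 at 3 h, 44 at 6 h and 45 at 12 h. Those are 88.7%, 83.0%, 83.0% and 84.9% of the members, beside 63.3%, 46.0%, 55.9% and 60.5% of all probe sets, many of which were dim and had wide intervals. The plot of all member differences shows the narrow spread around 0 and the few probe sets with wide intervals, which were the dimmest ones of Psmb1, Psmb4, Psmb5, Psmd11 and Psmg3 and the only one of Psmg2.

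**Figure D1:**
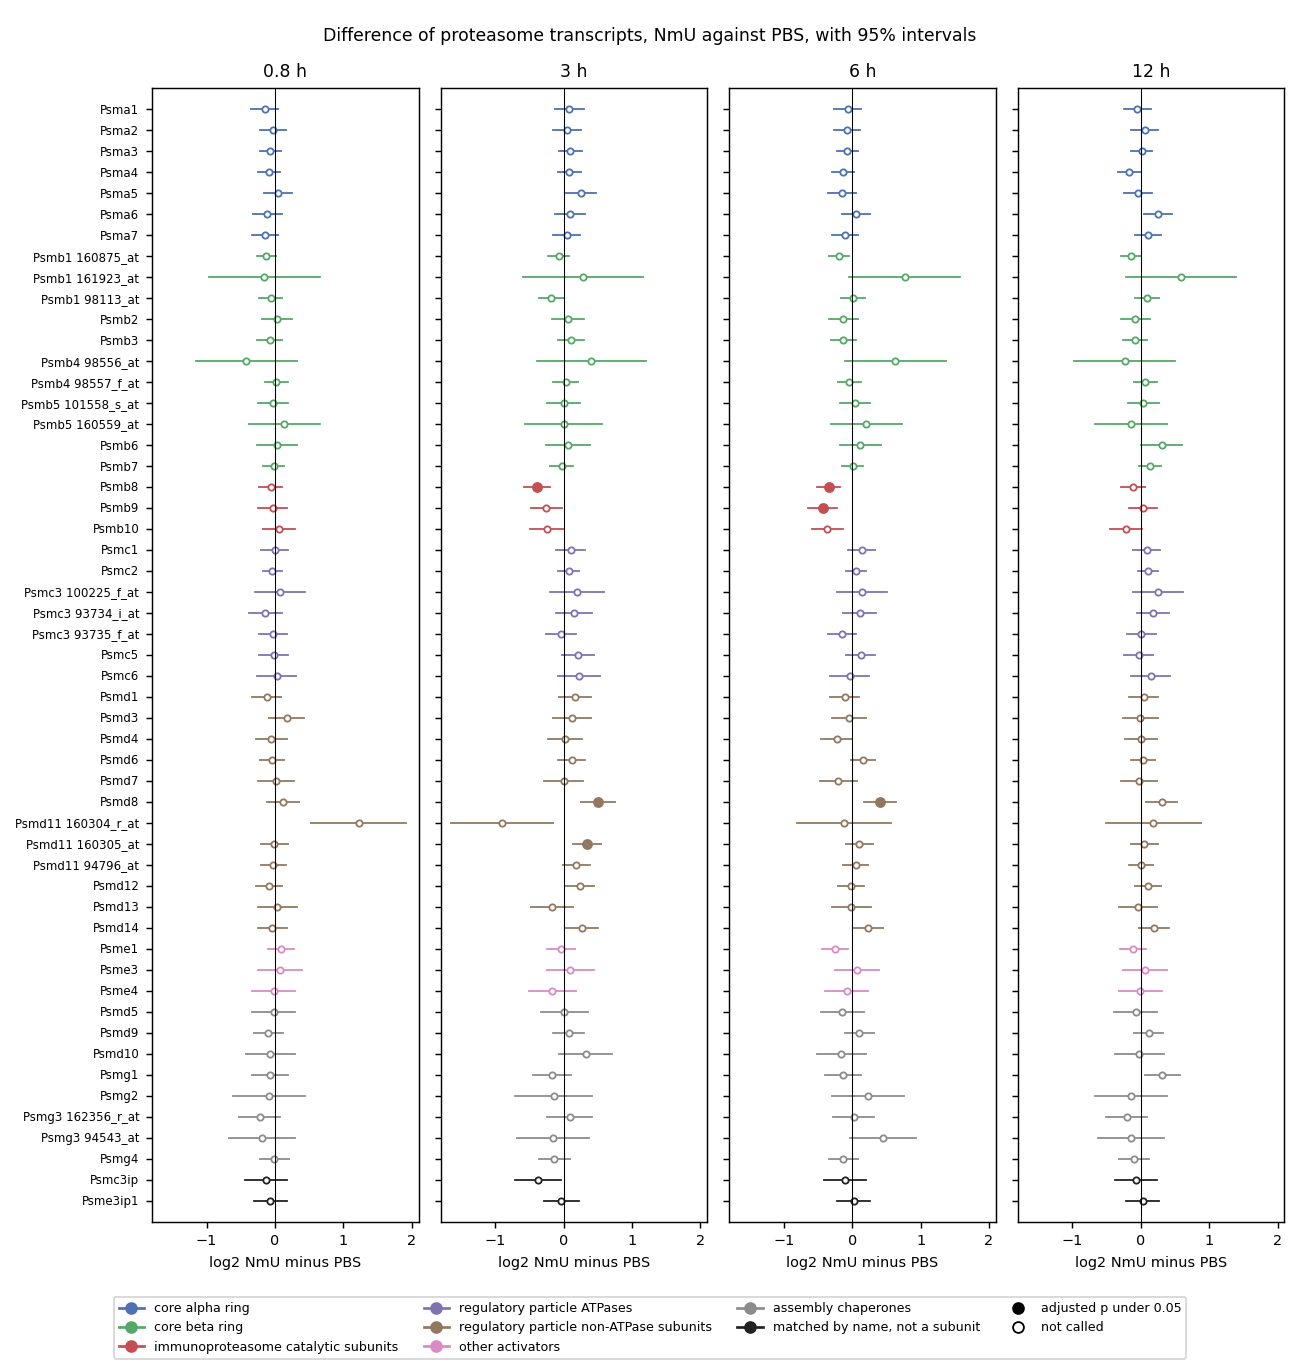
Log2 difference of NmU minus PBS (x axis, 1 panel per time) for the 53 tested member probe sets (rows, grouped by role), with 95% intervals from limma as bars. Filled points are the 3 probe sets called at 3 h and the 3 called at 6 h. Most points lie close to 0, and the immunoproteasome rows lie to the left of 0 at 3 and 6 h.

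Across all times, the F test called 4 members, namely Psmd8 (adjusted p = 0.00179), Psmb8 (0.00202), Psmb9 (0.0201) and the dimmest probe set of Psmd11 (0.0400), beside 11.6% of all probe sets. No member had an effect that differed between times at an adjusted p under 0.05 (F test of limma), beside 4.04% of all, and 4 members had an unadjusted p under 0.05. No member was called as changed over time in PBS, where 1 of the 7930 probe sets (0.0126%) was, and again 4 members had an unadjusted p under 0.05. Without a call, PBS at 6 h minus PBS at 0.8 h was 0.11 for Psmb8, 0.23 for Psmb9, 0.30 for Psmb10 and 0.27 for Psme1. For the constitutive Psmb5, Psmb6 and Psmb7 it was 0.11, 0.12 and 0.02. Rises of this size were not particular to the immunoproteasome and Psme1. Other members lay on both sides of 0, with 0.35 for Psmd5, 0.27 for Psma5 and 0.25 for Psmd4, and -0.15 for Psmd9 and -0.14 for Psmd6. The part of these PBS values in the differences at 6 h was not tested.

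The immunoproteasome subunits were the role in which all members lay lower with NmU at both 3 and 6 h. Psmb8, which carries the chymotrypsin-like site of the immunoproteasome, had signals of 3038.2, 3009.6 and 3096.3 with NmU at 3 h, against 4020.6, 3734.5, 4074.4 and 4107.8 with PBS. The groups did not overlap, and the log2 difference was -0.39 ± 0.09 (SE; adjusted p = 0.00541, limma). At 6 h, Psmb8 read 3205.9, 3460.1, 2768.5 and 2709.9 with NmU, against 3769.3, 4069.7, 3816.1 and 3690.2 with PBS. Again every NmU array lay below every PBS array, at -0.34 ± 0.08 (adjusted p = 0.0143, limma). At 0.8 h the difference was -0.06 ± 0.08 and at 12 h -0.11 ± 0.08 (adjusted p = 0.965 and 0.670, limma), with overlapping groups, and the test of whether the effect differed between times gave an adjusted p of 0.242.

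The call of Psmb8 at 3 h held without PBS 3 h replicate 4 (-0.37, adjusted p = 0.0121, limma) and was lost under median scaling of the arrays (-0.35, adjusted p = 0.0753). Its call at 6 h was lost without NmU 6 h replicate 4 (-0.29, adjusted p = 0.0517), NmU 6 h replicate 3 (adjusted p = 0.0696) or PBS 6 h replicate 2 (adjusted p = 0.0583), with the value between -0.29 and -0.41 whichever array was left out.

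Psmb9, which takes the place of the caspase-like subunit Psmb6, had signals of 1747.6, 1916.0, 1753.4 and 1905.0 with NmU at 6 h, against 2491.6, 2454.1, 2398.4 and 2520.9 with PBS. The NmU arrays formed a tight group well below the PBS arrays, and the log2 difference was -0.43 ± 0.10 (adjusted p = 0.0110, limma), the lowest of any member at 6 h. The call held with each of the 31 arrays left out, at an adjusted p of at most 0.0405. At 3 h, Psmb9 read 1545.3, 1967.9 and 2036.6 with NmU, against 2590.4, 2246.8, 2258.5 and 1749.2 with PBS. The PBS value of 1749.2 is that of replicate 4, which made the groups overlap. With it, the difference was -0.25 ± 0.11 and not called (adjusted p = 0.146, limma), and without it -0.36 (adjusted p = 0.0183, limma). At 12 h Psmb9 averaged 2106 ± 84.9 with NmU and 2057 ± 120 with PBS (SD, n = 4 each), a log2 difference of 0.04 ± 0.10.

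Psmb10, which takes the place of the trypsin-like subunit Psmb7, moved to the same side without a call. At 6 h its signals were 995.6, 1059.6, 913.6 and 1002.1 with NmU, against 1452.3, 1291.9, 1117.4 and 1259.6 with PBS. The groups did not overlap, and the difference was -0.36 ± 0.11 (adjusted p = 0.0610, limma). It passed without PBS 3 h replicate 4 (adjusted p = 0.0424), PBS 3 h replicate 1 (0.0369) or PBS 6 h replicate 3 (0.0406), and gave 0.0885 without NmU 6 h replicate 4. At 3 h it read 857.9, 1019.8 and 1055.0 with NmU, against 1430.5, 1034.2, 1221.8 and 989.7 with PBS, a difference of -0.25 ± 0.12 with overlapping groups (adjusted p = 0.210, limma) and of -0.32 without PBS 3 h replicate 4 (adjusted p = 0.0947). At 0.8 and 12 h the differences were 0.05 ± 0.11 and -0.22 ± 0.11 (adjusted p = 0.986 and 0.488, limma).

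The constitutive counterparts had no call at any time. Psmb5, read by its bright probe set, averaged 937 ± 138 with NmU (n = 3) and 929 ± 16.6 with PBS (n = 4) at 3 h, and 955 ± 55.1 with NmU and 931 ± 117 with PBS at 6 h (SD, n = 4 each). Its 4 log2 differences lay between -0.03 and 0.04. Psmb7 averaged 2013 ± 71.7 with NmU (n = 3) and 2056 ± 160 with PBS (n = 4) at 3 h, and 1925 ± 179 with NmU and 1914 ± 111 with PBS at 6 h (SD, n = 4 each). Its differences lay between -0.03 and 0.13. Psmb6 was more variable, and its differences lay between 0.03 and 0.31, the highest at 12 h, where it averaged 677 ± 124 with NmU and 550 ± 129 with PBS (SD, n = 4 each; adjusted p = 0.432, limma). Its groups overlapped at all 4 times.

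**Figure D2:**
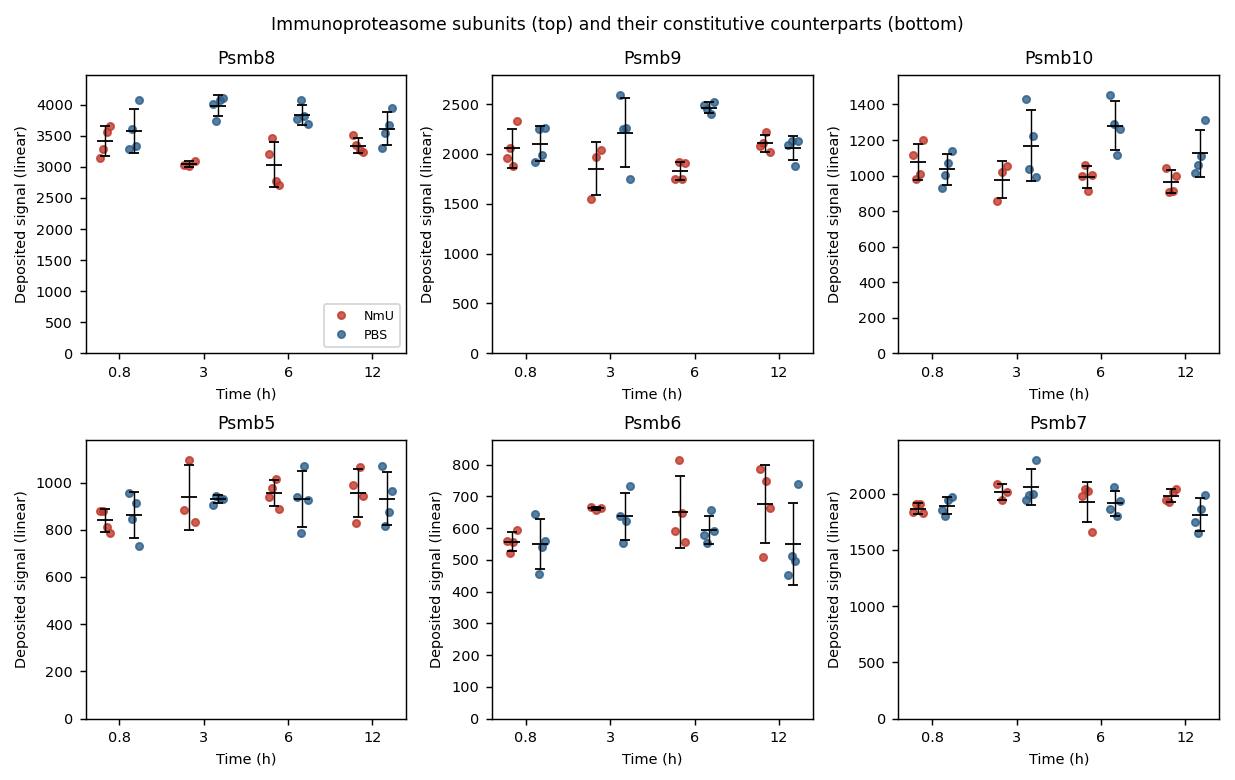
Deposited signal (linear scale from 0) on each array for the immunoproteasome subunits Psmb8, Psmb9 and Psmb10 (top) and the constitutive subunits Psmb5, Psmb6 and Psmb7 (bottom), with NmU left of PBS at each of 4 evenly spaced times. Points are arrays and bars are mean ± SD (n = 4, or 3 for NmU at 3 h). NmU arrays lie below all PBS arrays for Psmb8 at 3 and 6 h and for Psmb9 and Psmb10 at 6 h, whereas the bottom row overlaps throughout.

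The ratio of each immunoproteasome subunit to its counterpart on the same array does not depend on a scaling factor common to the whole array. It can still change under quantile normalisation. For Psmb8 to Psmb5 at 6 h, the mean log2 ratio was 1.66 ± 0.17 with NmU and 2.05 ± 0.23 with PBS (SD, n = 4 each), a difference of -0.39 with groups that did not overlap. For Psmb9 to Psmb6 at 6 h it was 1.5 ± 0.23 with NmU and 2.05 ± 0.13 with PBS (SD, n = 4 each), a difference of -0.55 without overlap. For Psmb10 to Psmb7 at 6 h it was -0.95 ± 0.17 with NmU and -0.58 ± 0.15 with PBS (SD, n = 4 each), a difference of -0.37 without overlap. All NmU arrays at 6 h had lower ratios than all PBS arrays for all 3 pairs. These ratios came from the same arrays and reused the signals of Psmb8, Psmb9 and Psmb10 given above, so they are not separate evidence. How often other pairs of probe sets separate in this way was not examined.

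Each of these gave p = 0.0286 in a two-sided exact permutation test, the smallest that 4 against 4 arrays can give, and p = 0.0858 after adjustment over the 12 tests of pair and time, so that no ratio passed 0.05. The ratio of Psmb10 to Psmb7 was also lower without overlap at 12 h (-1.04 ± 0.10 with NmU and -0.69 ± 0.09 with PBS, SD, n = 4 each; exact permutation p = 0.0286, adjusted 0.0858). At 3 h the ratio of Psmb8 to Psmb5 was 1.71 ± 0.22 with NmU (n = 3) and 2.1 ± 0.08 with PBS (SD, n = 4), without overlap, at the smallest exact permutation p that 3 against 4 arrays allow (0.0571, adjusted 0.137). The other 7 tests had overlapping groups, with exact permutation p-values between 0.229 and 0.971. Among them, Psmb9 to Psmb6 at 3 h (a difference of -0.32) overlapped through PBS 3 h replicate 4 alone, at 1.26 beside 1.86 to 2.02 on the other PBS arrays. Without that array the differences at 3 h were -0.37 for Psmb8 to Psmb5, -0.49 for Psmb9 to Psmb6 and -0.35 for Psmb10 to Psmb7, and without NmU 6 h replicate 4 those at 6 h were -0.37, -0.64 and -0.44. The adjusted p of these exact permutation tests lay between 0.137 and 0.4, and 3 against 3 or 3 against 4 arrays cannot pass 0.05. At 0.8 h the differences in the 3 ratios were -0.03, -0.06 and 0.07. The mean ratio of Psmb10 to Psmb7 at 0.8 h was -0.80 ± 0.17 with NmU and -0.87 ± 0.09 with PBS (SD, n = 4 each).

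**Figure D3:**
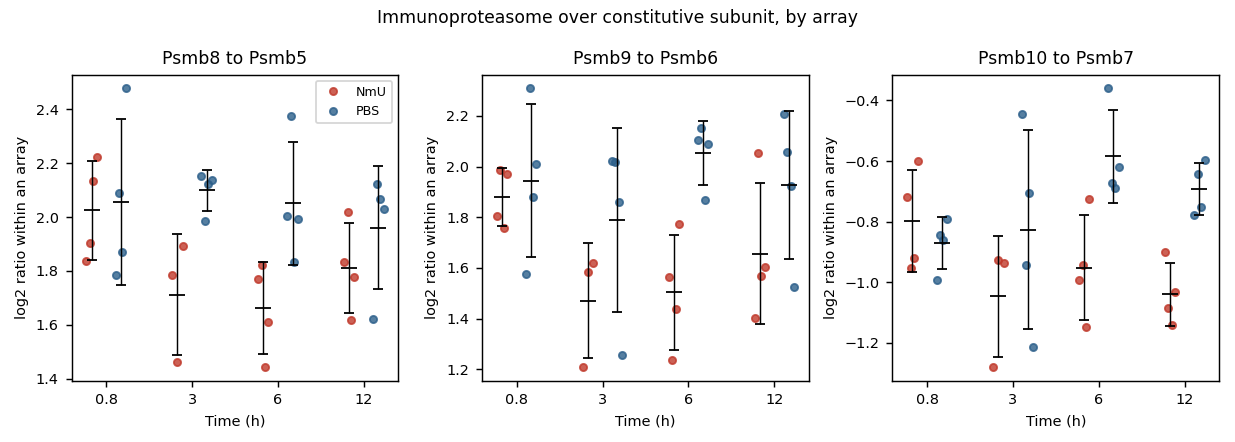
Log2 ratio of an immunoproteasome subunit to its constitutive counterpart within each array, with NmU left of PBS at each of 4 evenly spaced times. Points are arrays and bars are mean ± SD (n = 4, or 3 for NmU at 3 h). At 6 h the NmU arrays lie below all PBS arrays for all 3 pairs.

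In the RefSeq gene table of mouse assembly GRCm38.p6, Psmb9, Tap1, Psmb8 and Tap2 follow one another on chromosome 17 as neighbouring protein-coding genes, between H2-DMb1 and H2-Ob. Psmb9 and Tap1, a subunit of the transporter that carries peptides into the endoplasmic reticulum, start back to back. The 225 bases between their RefSeq starts (GRCm38.p6, chr17:34187331-34187555, plus strand, so that Psmb9 is read leftward and Tap1 rightward) are shown because both genes share them. Capitals mark a CCAAT box (CCAAT) and an antioxidant response element core (TGANNNNGC, here on the minus strand).
Psmb9 to Tap1: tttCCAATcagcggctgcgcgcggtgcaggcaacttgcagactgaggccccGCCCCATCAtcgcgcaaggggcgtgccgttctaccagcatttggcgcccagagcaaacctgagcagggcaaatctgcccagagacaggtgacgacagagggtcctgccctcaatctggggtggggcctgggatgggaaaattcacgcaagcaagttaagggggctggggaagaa
The CCAAT box begins 8 bases before the start of Psmb9 and the antioxidant response element core 60 bases before it.

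These letters are common. Promoters in the RefSeq table were found for 37 of the 44 subunit, activator and chaperone genes. On either strand of the 250 bases before the start, 14 of 37 (37.8%) held the antioxidant response element core, against 38.7% of all 27025 promoters. A CCAAT box was in 13 (35.1%), against 37.5% of all. The interferon-stimulated element was in 3, Psmb3, Psmd4 and Psmd9 (8.11%, against 3.46% of all). These motifs were matched by letters alone. The first 2 had shares in the members close to those of all promoters, and the last rests on 3 genes.

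Tap1 itself was lower with NmU at 3 h, at 704.1, 798.7 and 781.3 against 1131.9, 937.9, 1173.9 and 773.8 with PBS. The difference was -0.38 ± 0.12 (adjusted p = 0.0483, limma) and barely passed, with PBS 3 h replicate 4 inside the NmU range. Without PBS 3 h replicate 4 it was -0.50 (adjusted p = 0.00488, limma). The adjusted p was over 0.05 in 25 of 31 fits with 1 array left out, and highest without NmU 3 h replicate 1 (-0.33, adjusted p = 0.182). Tap2, the other transporter subunit, read 602.1, 540.7, 533.9 and 512.3 with NmU at 6 h, against 655.6, 694.4, 646.1 and 685.2 with PBS. These groups did not overlap, and the difference of -0.29 ± 0.11 was not called (adjusted p = 0.115, limma; -0.26 and 0.220 without NmU 6 h replicate 4).

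Psme1 encodes a subunit of the activator that is induced with the immunoproteasome. At 6 h it read 1058.8, 1306.4, 1109.7 and 981.2 with NmU, against 1359.0, 1372.3, 1315.6 and 1233.8 with PBS, overlapping through NmU replicate 2. The difference was -0.25 ± 0.09 (adjusted p = 0.128, limma), with -0.33 once that array was left out (adjusted p = 0.0392, limma) and -0.19 once NmU 6 h replicate 4 was (adjusted p = 0.305). At the other times it lay between -0.11 and 0.09. Psme3, which forms a nuclear activator, differed by 0.06 to 0.10, and Psme4, a large single-chain activator, by -0.16 to -0.01, both with overlap at all 4 times.

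In the regulatory particle, Psmd8 was higher with NmU at 3 and 6 h. Psmd8 is a lid subunit, part of the assembly that removes ubiquitin chains. At 3 h its signals were 629.6, 749.5 and 653.3 with NmU, against 499.6, 451.5, 518.7 and 447.0 with PBS. No arrays overlapped, and the log2 difference was 0.50 ± 0.12 (adjusted p = 0.00748, limma), the highest of any member at 3 h. At 6 h they were 603.6, 717.5, 608.5 and 556.8 with NmU, against 438.0, 422.5, 514.1 and 501.3 with PBS, again without overlap, at 0.41 ± 0.11 (adjusted p = 0.0336, limma). The differences at 0.8 and 12 h were 0.12 ± 0.11 and 0.30 ± 0.11 (adjusted p = 0.951 and 0.257, limma). Psmd8 was thus on the higher side at all 4 times, and the test of whether its effect differed between times gave an adjusted p of 0.484.

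The call at 3 h held without PBS 3 h replicate 4 (adjusted p = 0.0192) and was lost without NmU 3 h replicate 2 (0.42, adjusted p = 0.0593). The call at 6 h held without NmU 6 h replicate 4 (0.46, adjusted p = 0.0250) and was lost in 5 of 31 fits with 1 array left out, namely NmU 6 h replicates 1, 2 and 3 and PBS 6 h replicates 1 and 2, at an adjusted p between 0.0668 and 0.124. Under median scaling of the arrays the difference at 6 h was 0.32 (adjusted p = 0.239, limma).

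Psmd11, another lid subunit and one that limits assembly of the capped proteasome, had 3 probe sets, of which the dimmest disagreed with the others. The middle one in brightness read 511.6, 538.3 and 515.1 with NmU at 3 h, against 421.7, 429.2, 409.2 and 386.9 with PBS, without overlap, at 0.34 ± 0.10 (adjusted p = 0.0311, limma). The brightest one read 1394.6, 1432.6 and 1577.6 with NmU and 1309.0, 1258.2, 1271.4 and 1308.2 with PBS, without overlap and without a call, at 0.19 ± 0.09 (adjusted p = 0.225, limma). The dimmest one lay between 19.6 and 29.2 with NmU and between 24.0 and 67.5 with PBS, a difference of -0.90 ± 0.36 with overlap (adjusted p = 0.119, limma). Without PBS 3 h replicate 4 the difference of the dimmest one was -1.16 (adjusted p = 0.0382, limma).

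The call of the middle probe set was lost without any of the 3 NmU arrays at 3 h or PBS 3 h replicates 3 or 4 (adjusted p of 0.0576 to 0.106). Its difference without PBS 3 h replicate 4 was 0.31 (adjusted p = 0.0651, limma). The mean over all probe sets of Psmd11 gave -0.12 (adjusted p = 0.614, limma). The dimmest one also had the highest value of any member at 0.8 h, with 36.9, 30.8, 70.0 and 52.9 with NmU against 12.0, 29.0, 21.9 and 18.5 with PBS, without overlap and without a call (1.22 ± 0.34, adjusted p = 0.107, limma). At 3 h the middle and brightest probe sets of Psmd11 were therefore on the higher side and the dimmest on the lower side. The dimmest had a median signal of 32.3 over the 31 arrays and a coefficient of variation of 46.5% over the PBS arrays.

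**Figure D4:**
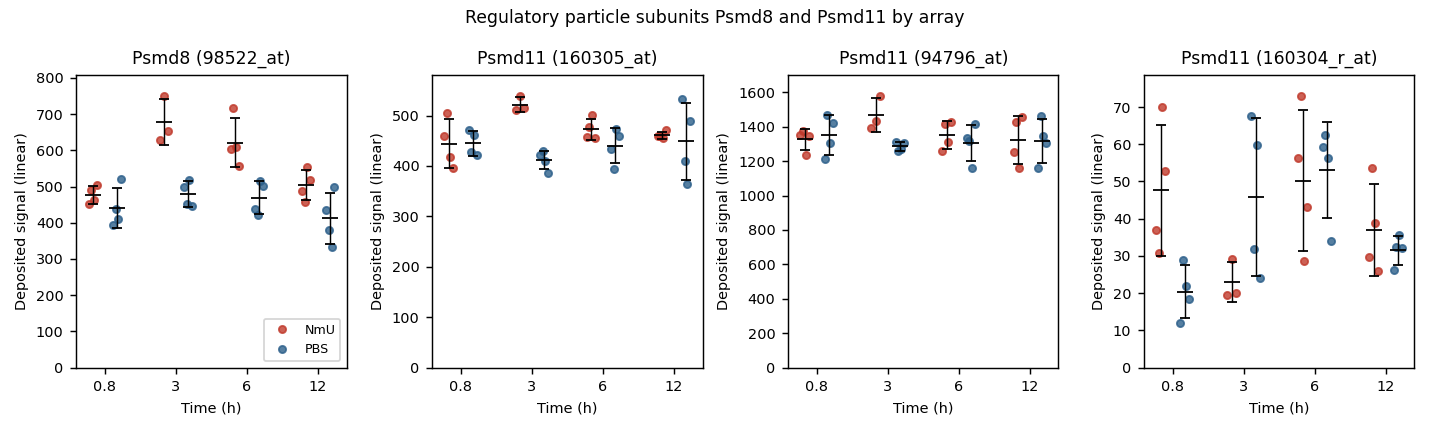
Deposited signal (linear scale from 0) on each array for Psmd8 and for the 3 probe sets of Psmd11, with NmU left of PBS at each of 4 evenly spaced times. Points are arrays and bars are mean ± SD (n = 4, or 3 for NmU at 3 h). Psmd8 separates at 3 and 6 h, and the bright Psmd11 probe sets at 3 h, whereas the dim one is scattered.

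The other non-ATPase subunits had no call with all arrays kept. Psmd14, the deubiquitinase of the lid, read 1163.7, 1083.8 and 992.8 with NmU at 3 h, against 761.7, 868.9, 916.7 and 1044.7 with PBS (0.27 ± 0.11, adjusted p = 0.125, limma). Psmd12, a lid subunit, read 907.1, 815.4 and 761.9 with NmU, against 629.0, 690.4, 680.8 and 794.9 with PBS (0.25 ± 0.10, adjusted p = 0.119, limma). For both, PBS replicate 4 was the highest of its group and the only one inside the NmU range. Without that array both passed, Psmd14 at 0.35 (adjusted p = 0.0444, limma) and Psmd12 at 0.31 (adjusted p = 0.0454, limma), and the members called at 3 h were then 3 higher (Psmd8, Psmd12 and Psmd14) and 3 lower (Psmb8, Psmb9 and the dim probe set of Psmd11). At 6 h, leaving out PBS 3 h replicate 4 added Psmb10 to Psmb8 and Psmb9, and leaving out NmU 6 h replicate 4 left Psmb9 as the only member called lower.

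Psmd1, a large scaffold subunit, differed by -0.12 to 0.16 over the 4 times, and the lid subunits Psmd3 by -0.05 to 0.17 and Psmd6 by -0.05 to 0.16. Psmd4, a receptor for ubiquitin chains, differed by -0.23 (at 6 h) to 0.03. Psmd7, the lid partner of Psmd14, differed by -0.20 (at 6 h) to 0.02, and Psmd13 by -0.17 to 0.03. The lowest adjusted p among these 6 genes was 0.291 (limma).

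The ATPases unfold substrates and thread them into the core. Of the 7 tested probe sets, 0 were called at any time, and 6 lay on the higher side at 3 h with a median log2 difference of 0.15, where 34 of the 53 members and 3617 of all 7930 probe sets did. Psmc6 had the highest of these, 0.23, and Psmc5 followed at 0.21 (adjusted p = 0.370 and 0.261, limma). Psmc1 differed by -0.01 to 0.14 and Psmc2 by -0.04 to 0.11. Psmc3 had 3 probe sets, which differed by 0.08 to 0.25, by -0.14 to 0.18 and by -0.15 to 0.01 over the 4 times, so that they did not share a direction. Psmc2 had a narrow range over the 31 arrays, from 1166.1 to 1430.0 with a median of 1298.2.

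The alpha ring, which gates the core, had 7 of 7 probe sets on the higher side at 3 h (median 0.09) and 6 of 7 on the lower side at 6 h (median -0.08; 29 of the 53 members and 3719 of all 7930 probe sets were lower there), with 0 called. Psma5 had the largest difference in the ring, 0.26 at 3 h (1457.0, 1773.9 and 1685.6 with NmU, against 1595.8, 1262.7, 1463.2 and 1183.7 with PBS; adjusted p = 0.134, limma). Psma6 differed by 0.25 at 12 h, where 2379.3, 2235.6, 2425.8 and 2481.7 with NmU lay above 1883.9, 1988.7, 1968.0 and 2198.2 with PBS without overlap (adjusted p = 0.326, limma). Psma4 was lowest at 12 h, at -0.18. The differences of Psma1, Psma2, Psma3 and Psma7 lay between -0.15 and 0.10. Psma4 also had the smallest spread among the members over the 16 PBS arrays, with a coefficient of variation of 4.85%.

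Of the constitutive beta ring, the structural subunits Psmb2 and Psmb3 differed by -0.13 to 0.07 and -0.13 to 0.11. Psmb1 had 3 probe sets. The middle one in brightness read 801.3, 789.7, 754.2 and 755.4 with NmU at 6 h, against 868.9, 979.9, 831.3 and 866.6 with PBS, without overlap, at -0.19 ± 0.07 (adjusted p = 0.121, limma). The brightest differed by 0.01 at that time, and the dimmest by 0.77 ± 0.39, the highest of any member at 6 h (adjusted p = 0.318, limma). Psmb4 likewise differed by -0.04 to 0.07 in its bright probe set, whereas its dim probe set ran from -0.42 at 0.8 h, the lowest of any member at that time, to 0.63 at 6 h. At 12 h the dim probe sets held both ends of the members, with 0.59 for Psmb1 and -0.24 for Psmb4. The dim probe set of Psmb5 differed by -0.14 to 0.21.

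The chaperones, which hold core or regulatory intermediates during assembly, had 0 calls in 8 probe sets. At 0.8 h all 8 lay on the lower side, with a median of -0.08, as did 38 of the 53 members and 4818 of all 7930 probe sets. The highest values were 0.46 at 6 h in the dim probe set of Psmg3 (0.02 in the other), 0.32 at 3 h in Psmd10 and 0.32 at 12 h in Psmg1, with adjusted p-values of 0.320, 0.309 and 0.322 (limma). Psmg1 read 266.5, 281.9, 267.7 and 265.9 with NmU at 12 h, against 213.4, 162.1, 271.3 and 236.6 with PBS, a tight group that overlapped through 1 PBS array. Psmd5, Psmd9, Psmg2 and Psmg4 differed by at most 0.23 in size. Of the probe sets matched by name alone, Psmc3ip differed by -0.37 at 3 h (adjusted p = 0.147, limma) and Psme3ip1 by at most 0.07 in size.

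Around the proteasome, 36 tested genes from 5 further lists gave 1, 3, 1 and 0 calls at 0.8, 3, 6 and 12 h. Over the whole array, 67, 806, 387 and 100 of the 7930 probe sets were called at these times. Among 8 regulators of proteasome genes, Irf1, the interferon-responsive factor that drives immunoproteasome genes and Tap1, was higher at 0.8 h. It read 784.5, 812.4, 788.8 and 814.5 with NmU, against 470.0, 487.7, 508.3 and 502.4 with PBS (0.70 ± 0.11, adjusted p = 0.000222, limma), every NmU array far above every PBS array. Its differences were -0.12, -0.06 and -0.09 at 3, 6 and 12 h, with -0.26 at 3 h without PBS 3 h replicate 4 (adjusted p = 0.0992, limma) and -0.17 at 6 h without NmU 6 h replicate 4, which read 593.8 against 419.2 to 467.0 on the other NmU arrays. Irf8, a related factor of blood cells, was higher at 3 h, at 109.4, 99.2 and 108.4 with NmU against 42.3, 43.6, 36.0 and 33.4 with PBS (1.45 ± 0.17, adjusted p = 9.81e-07, limma). Nfe2l1, the factor that raises proteasome genes when degradation fails, had no call with all arrays kept, and read by its bright probe set its differences lay at 0.23 (0.8 h, without overlap), -0.29, -0.01 and -0.08. Without PBS 3 h replicate 4, which read 296.0 beside 454.5 to 473.7 on the other PBS arrays, Nfe2l1 was lower at 3 h, at -0.45 (adjusted p = 0.00254, limma). The other probe set of Nfe2l1 gave -0.11 at 3 h with all arrays (adjusted p = 0.844, limma) and -0.49 without that array (adjusted p = 0.039, limma). Its relative Nfe2l2 had no call either.

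Among 8 partners that bind the proteasome, Zfand5, a zinc finger protein that stimulates degradation, was higher at 3 h (464.9, 418.9 and 463.1 with NmU, against 299.7, 398.5, 313.3 and 286.9 with PBS; 0.48 ± 0.13, adjusted p = 0.0188, limma). At 0.8 h its difference was the same 0.48 without overlap but not called (adjusted p = 0.0686), and at 6 and 12 h it was -0.08 and -0.16. Sem1, a small subunit of the regulatory particle whose symbol lies outside the rule, was lower at 6 h, at 2868.2, 3265.5, 2987.5 and 2660.1 with NmU against 3841.7, 3801.1, 3472.6 and 3444.6 with PBS (-0.31 ± 0.08, adjusted p = 0.0206, limma). Sem1 lost its call without NmU 6 h replicate 4 (-0.26, adjusted p = 0.0714), NmU 6 h replicate 1 or PBS 6 h replicates 1 or 2. Zfand5 at 3 h lost it without PBS 3 h replicate 4 (0.42, adjusted p = 0.0507), PBS 3 h replicate 1 or NmU 3 h replicates 1 or 3. Pomp, the maturation factor of the core, lay between -0.13 and 0.18.

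The 7 tested genes of ubiquitin activation and transfer and the 5 of delivery to the proteasome had 0 calls at each of the 4 times. Of all 7930 probe sets, 67, 806, 387 and 100 were called at 0.8, 3, 6 and 12 h, so few calls would be met in lists this short. The F test over all times called the bright probe set of Ube2d2a (adjusted p = 0.0176, limma), beside 11.6% of all probe sets. Of the 8 tested genes of MHC class I peptide loading, only Tap1 was called, at 3 h as given above. The class I light chain B2m differed by -0.11, 0.11, -0.04 and 0.15 at 0.8, 3, 6 and 12 h. Among the cell type markers, Cd68, a macrophage marker at a dim signal, was higher at 6 h, at 52.4, 48.2, 52.3 and 47.1 with NmU against 31.2, 30.5, 39.6 and 36.7 with PBS (0.54 ± 0.15, adjusted p = 0.0370, limma; 0.57 and 0.0470 without NmU 6 h replicate 4). It was also higher at 12 h (0.61 ± 0.15, adjusted p = 0.0457, limma). At 3 h the marker called was Gata3, at 2778.1, 2251.3 and 2667.9 with NmU against 1815.1, 2071.9, 1860.7 and 1851.9 with PBS (0.43 ± 0.11, adjusted p = 0.0112, limma; 0.42 and 0.0218 without PBS 3 h replicate 4). The summed macrophage and dendritic list of 8 genes ranged from 513.1 to 645.2 with NmU and from 450.7 to 557.1 with PBS at 6 h. The part of this list, or of Cd68, in the immunoproteasome values was not tested.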

How the data were processed

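Total RNA of 31 samples was hybridised to 1 array each. The deposited values were intensities, 1 per probe set and array, which the authors gave in linear units. How they were scanned, summarised and scaled is not given in the sources used here. The mean of each array, with 2% of probe sets taken off each end, was 150.1 on every array when rounded, so the intensities had been scaled to a common mean and were used as deposited. A change is therefore relative to the other transcripts of the array. Groups and replicate numbers came from the sample titles. Nothing says that replicates were separate cultures, so p-values reflect the scatter among these samples alone, possibly a technical one, and the number of arrays limits precision. Same-numbered arrays of a time deviated together in 5 of 15 pairs only (correlations of -0.22 to 0.20, counted over 0.1), so the numbers were not taken as pairs.

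Signals under 5.8, the 20th percentile, were set to that floor before log2 was taken. Probe sets whose mean log2 value exceeded that of a signal of 20.2, the 40th percentile, in at least 1 group were kept, which left 7930. All arrays entered 1 limma fit of 8 group means (limma 3.58.1, R 4.3.3, lmFit and eBayes, 23 residual degrees of freedom), with NmU minus PBS at each time, F tests, and Benjamini-Hochberg adjustment over the 7930 probe sets. P-values are two-sided, errors of log2 differences are SE, and errors of signals are SD. Ratios within arrays were compared by exact permutation in scipy 1.17.1. The 66 control probe sets were left out. A gene of the other lists, and Psmb5 in the ratio, was read by its brightest probe set. Gene names came from the platform annotation, and symbols and promoters from RefSeq tables of GRCm38.p6, and 1 further promoter motif searched is not reported here. On simulated data of 7930 probe sets, changes of 0.50 on the log2 scale were recovered in 38%, 46%, 30% and 38% of cases at 0.8, 3, 6 and 12 h, and changes of 1.00 in 80%, 84%, 86% and 72%. The noise was normal with the spread of each probe set, and the changes were placed at random over all probe sets kept. Many of these were dimmer than the members, so the percentages do not give the share of changed members that would be called.

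The members and lists were chosen with earlier results of these data known. Named with full values were the immunoproteasome genes, their counterparts, the activators, every member called, the highest and lowest member at each time, called genes of the other lists and defining cell type markers. Tap2, Nfe2l1, Nfe2l2, Pomp, B2m and Egr2, and members shown for an effect of 1 array or a lack of overlap, were named after their values were seen. The alternatives tried were median and quantile scaling, the floor, a pseudocount of 16, the filter, a replicate block, the 2 groups alone, a 1.5-fold minimum, the mean over probe sets, and leaving out each array.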

Additional observations from a re-analysis of the deposited data

Results flagged for a closer look

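Single arrays far from the rest of their group of 4 were found in 6 of 126 groups examined over 18 probe sets, where chance alone gives about 1 in 20 groups. Psmb9 read 1878.4 in PBS 12 h replicate 3, below 2088.8 to 2130.9 on the others. Psmb7 read 1658.1 in NmU 6 h replicate 4, below 1980.2 to 2038.0, and 2294.4 in PBS 3 h replicate 4, above 1947.1 to 1994.3. Psme1 read 1306.2 in NmU 0.8 h replicate 4, above 1111.4 to 1125.9, and 1361.1 in PBS 12 h replicate 4, above 1081.2 to 1128.3. Tap1 read 1002.4 in NmU 6 h replicate 2, above 777.7 to 815.7. Of these, PBS 3 h replicate 4 and NmU 6 h replicate 4 are the arrays that stood apart from their groups for other genes, and the part of this in any result was not tested.

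The effect of NmU differed between times for 3 genes outside the member list, by the interaction F test of limma with adjustment over all probe sets. The adjusted p was 0.00108 for Irf8 (differences of 0.30, 1.45, 0.06 and 0.17 at 0.8, 3, 6 and 12 h), 0.00297 for Irf1 (0.70, -0.12, -0.06 and -0.09) and 0.0280 for Zfand5 (0.48, 0.48, -0.08 and -0.16).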

How the results depend on the processing

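The calls were few and several were close to the threshold. Without single arrays, the members called at 3 h numbered 0 to 3 higher and 1 to 3 lower, at 6 h 0 to 1 higher and 1 to 3 lower, and members whose effect differed between times 0 to 2. Leaving out NmU 3 h replicate 2 gave the 0 for higher members at 3 h. Leaving out PBS 3 h replicate 4 gave the 3 in both directions at 3 h, the 3 for lower members at 6 h and the 2. At 0.8 h, 1 member, the dim probe set of Psmd11, was called higher with median scaling or quantile normalisation. At 3 h, the count of higher members was 1 with median scaling and 0 with the 2 groups alone, with the replicate block or with a 1.5-fold minimum, and the count of lower members was 0 with median scaling, the 2 groups alone or the 1.5-fold minimum. At 6 h, the count of higher members was 0 with median scaling, the 2 groups alone, the replicate block or the 1.5-fold minimum, and of lower members 1 with the 2 groups alone and 0 with the 1.5-fold minimum. Members whose effect differed between times numbered 1 with median scaling or quantile normalisation. The replicate block, which at 3 h leaves PBS replicate 4 without a partner, kept the calls of Psmb8 and Psmb9, and gave Psmd8 an adjusted p of 0.0527 at 3 h and 0.0772 at 6 h. Psmb9 at 6 h kept its call in all other settings and lost it with the 1.5-fold minimum alone. Psmb8 at 3 h lost its call with median scaling (adjusted p = 0.0753) and with the 2 groups alone (0.117), and Psmb8 at 6 h with the 2 groups alone (0.130). Psmb10 at 6 h passed with median scaling (adjusted p = 0.0499) and with the higher floor (0.0498). Tap1 at 3 h lost its call with median scaling (0.131), the 2 groups alone (0.287), the mean over all probe sets (-0.31, 0.668) and no filter on dim probe sets (0.0536), and Sem1 at 6 h with quantile normalisation (0.0595) and with the 2 groups alone (0.141). The mean over all probe sets turned Psmd11 at 3 h to -0.12. The 12 tests of ratios passed 0.05 under none of the settings run. Median scaling moved the median difference of all probe sets by at most 0.09 on the log2 scale. The fits of 2 groups and those with an array left out also held fewer arrays. The causes of the changed calls were not tested.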
